A study of Mus musculus with 14 samples.

Results

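The genes described here are 10 genes of the lipid droplet coat and of triglyceride lipolysis, followed in mouse duodenal mucosa through the first hours of a meal rich in fat (HF, high-fat) or poor in fat (LF, low-fat). They are Plin2, Plin3, Cideb, Cidec, G0s2, Pnpla2, Abhd5, Hilpda, Fitm2 and Lipe, and they were chosen by name for their known roles, with earlier results of these data known. All 10 were found on the array, on 14 of the 45037 probe sets tested, and they are 10 of the 18193 genes with at least 1 probe set of their own. The mice were male C57BL6, 12 wk old, kept for 2 wk on the LF diet and then fasted for 12 h. The HF30min, HF1h and HF3h mice were then offered a HF meal (60% of calories from fat) without restriction and were killed after 30 min, 1 h or 3 h of feeding, and the LF30min, LF1h and LF3h mice were offered a LF meal (10% of calories from fat) for the same times. The Fasting mice were killed without a meal. The HF meal also held less carbohydrate than the LF meal, so that the meals differed in both. Each of these 7 groups was 1 pool of scraped mucosa from 20 mice, and the RNA of a pool was hybridised to 2 arrays (Affymetrix MOE 430 v2.0), which the labels call technical replicates. The p-values below therefore measure the error between arrays of 1 pool and not the variation between mice.

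Enterocytes, the absorptive cells of the mucosa, rebuild triglyceride from the fatty acids of a meal, export part of it in chylomicrons and store part of it for a time in cytosolic lipid droplets. A droplet is a core of neutral lipid under a phospholipid monolayer, coated by perilipins and by CIDE proteins, which promote droplet fusion and growth. The stored triglyceride is released by lipolysis, in which adipose triglyceride lipase, encoded by Pnpla2, acts with its co-activator ABHD5 and is held back by the small proteins G0S2 and HILPDA, and hormone-sensitive lipase, encoded by Lipe, then cleaves diglyceride.

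The deposited values are log2 intensities, so that a difference of 1 is a 2-fold difference. Array medians lay between 4.47 and 4.55, and the correlation within a pool was 0.9958 to 0.9971. A probe set mean under 6 is called near background here, since 38 olfactory receptor genes, used as genes that mucosa should not express, had a median of 3.44, a 95th percentile of 4.68 and no mean over 6. All 13 measured enterocyte markers lay above that level, and their mean was 12.73 to 12.81 in the 7 pools. A gene is called changed at an adjusted p under 0.05 from limma, and the 2-fold count asks for a 2-fold difference as well.

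Among the lipid droplet genes, more were called 3 h into the HF meal than in any other comparison with Fasting. At HF3h compared with Fasting, 5 of the 10 genes rose and none fell, against 6.67% of all genes called in that comparison. Those 5 were Plin2, Plin3, Cidec, G0s2 and Fitm2. Plin2, Cidec and G0s2 also passed the 2-fold threshold, against 0.484% of all genes. The median log2 fold change was 0.42 over the 10 genes and -0.003 over all genes. In mucosa scraped as bulk tissue, a change in the number of cells of a type and a change in RNA per cell cannot be told apart.

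**Figure D1:**
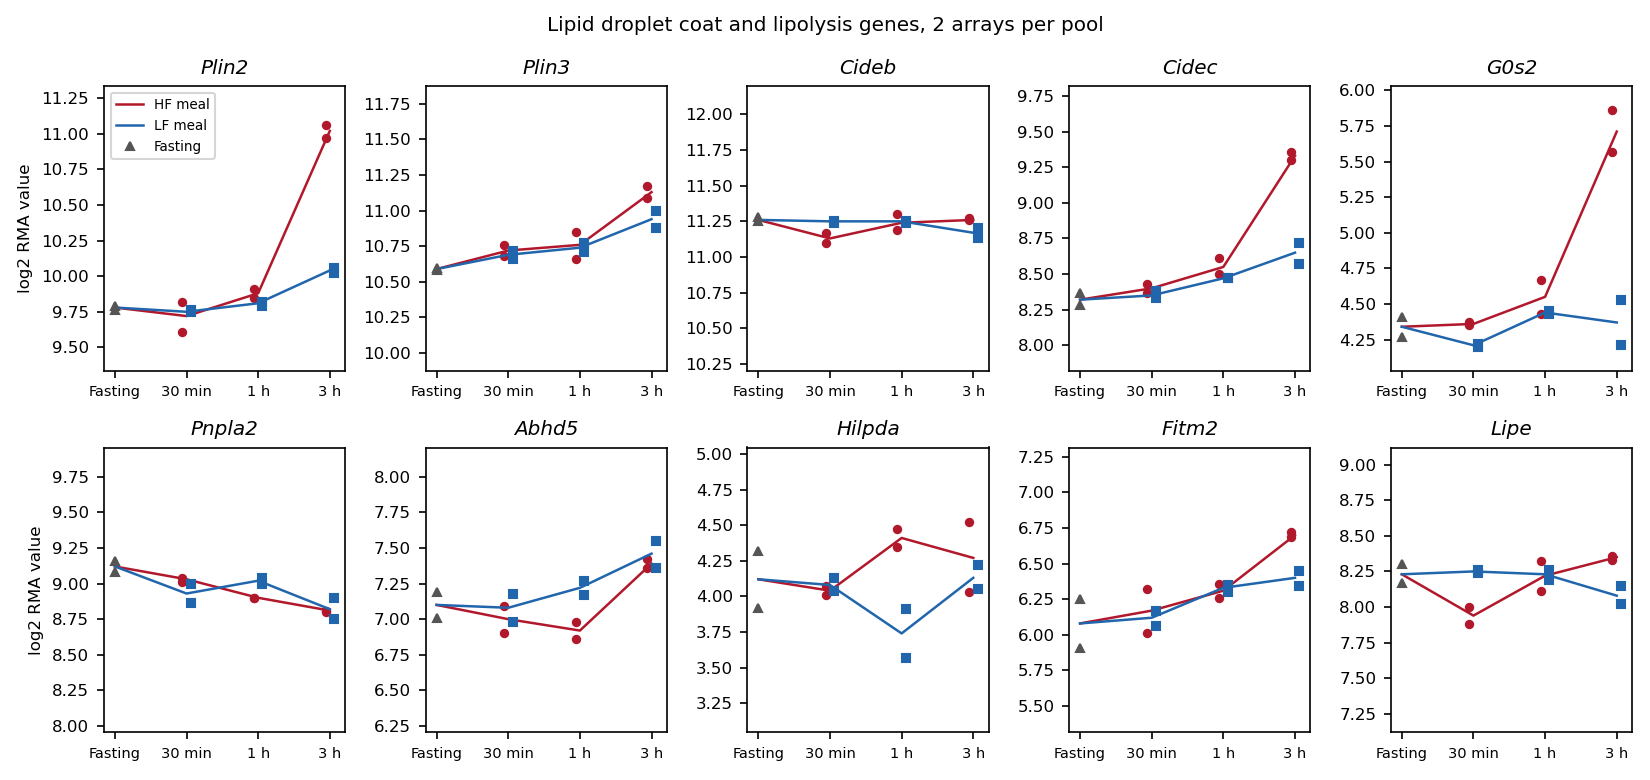
Log2 RMA value (vertical axes, each spanning 2 log2 units) of the 10 genes in the Fasting pool and at 30 min, 1 h and 3 h of the HF meal (red) or LF meal (blue). Each point is 1 array and each line joins the means of the 2 arrays of a pool. Plin2, Cidec and G0s2 leave the other pools at HF3h, where they averaged 11.02, 9.33 and 5.71.

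Plin2 encodes perilipin 2, a droplet coat protein of most cell types (Entrez gene 11520, chr4:86626910-86670217 in GRCm38.p6, probe set 1448318_at). Its log2 values along the HF series were 9.76 and 9.79 in Fasting, 9.82 and 9.61 at HF30min, 9.85 and 9.91 at HF1h and 11.06 and 10.97 at HF3h. Along the LF series they were 9.75 and 9.76 at LF30min, 9.79 and 9.82 at LF1h and 10.02 and 10.06 at LF3h. Both HF3h arrays lay above the other 12 arrays, and the 2 LF3h arrays lay above all remaining arrays without passing the test. Plin2 was 1.24 higher at HF3h than in Fasting (standard error 0.09, 95% interval 1.05 to 1.43, limma adjusted p = 1.5e-06). It was 0.26 higher at LF3h than in Fasting (0.07 to 0.45, adjusted p = 0.12).

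Plin3 encodes perilipin 3, a coat protein that moves from the cytosol onto newly formed droplets (Entrez gene 66905, chr17:56278962-56290511, probe set 1416424_at). It read 10.58 and 10.6 in Fasting, 10.76 and 10.68 at HF30min, 10.66 and 10.85 at HF1h and 11.17 and 11.09 at HF3h. After the LF meal it read 10.72 and 10.66 at 30 min, 10.77 and 10.71 at 1 h and 10.88 and 11 at 3 h. The Fasting arrays were the lowest of all 14, and the HF3h arrays the highest. Plin3 rose by 0.54 at HF3h compared with Fasting (0.35 to 0.74, limma adjusted p = 0.0026) and by 0.35 at LF3h (0.16 to 0.55, adjusted p = 0.042). The LF3h call lapsed in 13 of 22 alternative settings. HF3h and LF3h differed by 0.19, with an interval of -0.01 to 0.39 (adjusted p = 0.34).

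Of the CIDE genes, Cidec was called higher at HF3h and, close to the threshold, at LF3h, while Cideb was not called in any comparison. Cidec, which in adipocytes drives the growth of large droplets (Entrez gene 14311, chr6:113424634-113435760, probe set 1452260_at), read 8.37 and 8.28 in Fasting, 8.43 and 8.37 at HF30min, 8.5 and 8.61 at HF1h and 9.36 and 9.3 at HF3h. The LF series of Cidec was 8.33 and 8.38, then 8.47 and 8.47, then 8.57 and 8.72 at LF3h. The HF3h arrays stood above the other 12, and the LF3h arrays overlapped with the HF1h arrays. Cidec rose by 1.01 at HF3h compared with Fasting (0.82 to 1.19, limma adjusted p = 8.7e-06) and by 0.32 at LF3h (0.14 to 0.51, adjusted p = 0.049). The LF3h call lapsed in 18 of 22 alternative settings. Cideb, which in liver and intestine takes part in loading lipid onto apolipoprotein B particles (Entrez gene 12684, chr14:55754052-55758424, probe set 1418976_s_at), had its 14 arrays between 11.1 and 11.3. Its difference between HF3h and Fasting was 0, with an interval of -0.17 to 0.17 (adjusted p = 1).

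G0s2 encodes the inhibitor of adipose triglyceride lipase (Entrez gene 14373, chr1:193272160-193273188, probe set 1448700_at). It read 4.41 and 4.27 in Fasting, 4.35 and 4.37 at HF30min, 4.43 and 4.67 at HF1h and 5.57 and 5.86 at HF3h, and 4.22 and 4.2 at LF30min, 4.43 and 4.45 at LF1h and 4.53 and 4.21 at LF3h. The HF3h arrays lay apart from the other 12, which covered a range of 4.2 to 4.67. All 7 pools were near background, and only the HF3h pool mean, 5.71, exceeded the 95th percentile of the olfactory receptor genes (4.68). The log2 difference of at least 1.37 between HF3h and Fasting (adjusted p = 1.4e-05 from limma) is for that reason a lower bound, and no linear fold is given.

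The remaining inhibitor, Hilpda, was near background in every pool (Entrez gene 69573, chr6:29272488-29275449, probe set 1421031_a_at). Its arrays ranged from 3.57 to 4.52, and its largest SD between the 2 arrays of a pool was 0.34, at HF3h, where they read 4.03 and 4.52. It averaged 4.41 at HF1h, 3.74 at LF1h and 4.12 in Fasting, and none of its comparisons passed the test.

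Neither the lipase gene Pnpla2 nor its co-activator gene Abhd5 was called in a comparison with Fasting. Pnpla2 (Entrez gene 66853, chr7:141455188-141460743, probe set 1428143_a_at) read 9.08 and 9.16 in Fasting, 9.04 and 9.01 at HF30min, 8.9 and 8.9 at HF1h and 8.8 and 8.81 at HF3h. After the LF meal it read 8.86 and 9 at 30 min, 9 and 9.04 at 1 h and 8.75 and 8.9 at 3 h. Both Fasting arrays were above the other 12. The difference from Fasting was -0.31 at HF3h (-0.5 to -0.12, limma adjusted p = 0.055) and -0.29 at LF3h (-0.48 to -0.11, adjusted p = 0.076), and HF3h and LF3h differed by -0.02 (-0.2 to 0.17, adjusted p = 0.95). Neither difference from Fasting passed the threshold, but both did so under 3 other settings. The adjusted p at HF3h was then 0.043 after quantile normalization, 0.0059 after removal of dim probe sets and 0.0019 with a variance trend, and at LF3h it was 0.033, 0.0091 and 0.0038. The other Pnpla2 probe set, 1428591_at, stayed between means of 3.18 and 3.59, near background.

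Abhd5 was read by 3 probe sets (Entrez gene 67469, chr9:122351616-122381524). Probe set 1417566_at read 7.19 and 7.01 in Fasting, 7.09 and 6.9 at HF30min, 6.86 and 6.98 at HF1h and 7.42 and 7.36 at HF3h, and after the LF meal 6.98 and 7.18, then 7.17 and 7.27, then 7.36 and 7.55 at LF3h. The 3 h pools of both meals were the highest and overlapped with each other. At HF3h Abhd5 was 0.29 above Fasting (0.05 to 0.52, limma adjusted p = 0.17), and at LF3h 0.36 above it (0.12 to 0.59, adjusted p = 0.087). Probe set 1417565_at gave 0.31 and 0.3 for these differences (adjusted p = 0.074 and 0.085). With dim probe sets removed, the brighter probe set was called at HF3h (adjusted p = 0.044) and at LF3h (adjusted p = 0.018), and with a variance trend at LF3h (adjusted p = 0.019). The third, 1447548_at, was near background at 2.76 to 3.05.

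Fitm2, which encodes an endoplasmic reticulum protein needed for droplets to form (Entrez gene 228859, chr2:163468703-163472629, probe set 1454935_at), read 5.91 and 6.25 in Fasting, 6.32 and 6.01 at HF30min, 6.36 and 6.26 at HF1h and 6.69 and 6.72 at HF3h. After the LF meal it read 6.17 and 6.06, then 6.35 and 6.3, then 6.45 and 6.34 at LF3h. The HF3h arrays were the highest of the 14, while the 2 Fasting arrays differed by more than those of any other pool. Fitm2 rose by 0.63 at HF3h compared with Fasting (0.36 to 0.89, limma adjusted p = 0.0076). Without Fasting replicate 1 that difference was 0.46 (adjusted p = 0.11), and without HF3h replicate 2 it was 0.61 (adjusted p = 0.058).

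Lipe (Entrez gene 16890, chr7:25379527-25398486, probe set 1422820_at) read 8.17 and 8.3 in Fasting, 8 and 7.88 at HF30min, 8.11 and 8.32 at HF1h and 8.33 and 8.36 at HF3h. Its LF values were 8.26 and 8.24, then 8.26 and 8.19, then 8.02 and 8.15 at LF3h. The HF30min arrays were the lowest of the 14 and the HF3h arrays the highest. None of its comparisons passed the test, with -0.3 at HF30min against Fasting (adjusted p = 0.2 from limma) and 0.26 at HF3h against LF3h (0.06 to 0.47, adjusted p = 0.2). Its other probe set, 1432180_at, was near background at 2.99 to 3.22.

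**Figure D2:**
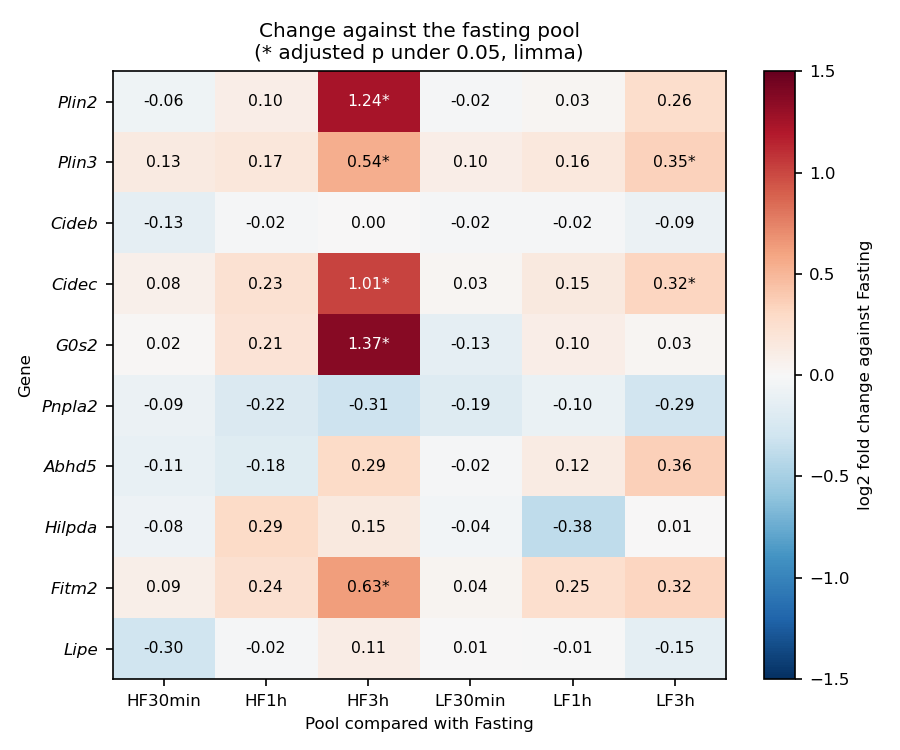
Log2 fold change (colour and printed value) of each of the 10 genes (rows) in each fed pool compared with Fasting (columns). An asterisk stands for an adjusted p under 0.05 from limma. HF3h holds 5 such values, from 0.54 for Plin3 to 1.37 for G0s2, and LF3h holds 2, 0.32 for Cidec and 0.35 for Plin3.

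To show the sequence before an annotated start of the 3 genes with the largest changes at HF3h, RefSeq promoter windows (GRCm38.p6, 250 bases before that start) are given. They follow 5′ to 3′ on the strand of the gene, the minus strand in all 3. The Plin2 window belongs to a start inside the annotated gene, which reaches to position 86670217, so that part of this window lies within the gene. Capitals mark a match to the nuclear receptor half-site AGGTCA on either strand, which reads TGACCT where the match is on the opposite strand.
Plin2, chr4:86670060-86670309: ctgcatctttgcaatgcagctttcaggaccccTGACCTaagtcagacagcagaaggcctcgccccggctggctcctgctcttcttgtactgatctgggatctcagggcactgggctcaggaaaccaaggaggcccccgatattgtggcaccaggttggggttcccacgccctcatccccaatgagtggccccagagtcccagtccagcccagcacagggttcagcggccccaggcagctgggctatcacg
Cidec, chr6:113435761-113436010: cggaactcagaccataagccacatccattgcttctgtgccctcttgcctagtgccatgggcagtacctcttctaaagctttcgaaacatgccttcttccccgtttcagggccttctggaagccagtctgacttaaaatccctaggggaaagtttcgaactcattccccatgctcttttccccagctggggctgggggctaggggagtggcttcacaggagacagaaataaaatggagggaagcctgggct
G0s2, chr1:193273189-193273438: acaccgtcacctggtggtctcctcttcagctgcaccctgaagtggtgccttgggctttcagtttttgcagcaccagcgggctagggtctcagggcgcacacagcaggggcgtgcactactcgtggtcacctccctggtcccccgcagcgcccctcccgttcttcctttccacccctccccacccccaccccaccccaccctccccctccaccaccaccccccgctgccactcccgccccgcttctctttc
Only the Plin2 window held the half-site, with its first base at position -218. RefSeq lists a further Cidec start, whose window also held none. Among all 13 windows of the 10 genes, 2 held the half-site, those of Plin2 and Abhd5, against 14% of 32851 mouse promoters. The direct repeat of that half-site with 1 spacer base (AGGTCANAGGTCA, both strands), the layout bound by PPAR and RXR pairs, was in none of the 13 windows and in 0.0335% of all promoters. The forkhead motif GTAAACA was in 1 window, of Lipe, against 3.17% of all promoters. The hypoxia core ACGTG was in 2, of Hilpda and Lipe, against 16.6%, and the E-box CACGTG, which contains that core, was in the same Lipe window, against 6.02%. These matches describe letters in a short window and not binding.

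None of the 10 genes passed the test in the early comparisons. At HF30min and HF1h compared with Fasting, 0 of the 10 genes were called by limma, against 1.12% and 1.01% of all genes, and at LF30min and LF1h 0 of 10, against 0.401% and 1.54%. At an unadjusted p under 0.05 there was 1 lower gene at HF30min (Lipe), 1 higher (Cidec) and 1 lower (Pnpla2) at HF1h, and 1 lower gene each at LF30min (Pnpla2) and LF1h (Hilpda). The early 2-fold counts were 0 as well, by adjusted or unadjusted p, and the shares over all genes were 0.198% at HF30min, 0.126% at HF1h, 0.0879% at LF30min and 0.264% at LF1h. The medians of the 10 genes lay between -0.07 and 0.13 in these 4 comparisons.

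At 3 h of the LF meal, 2 of the 10 genes rose and none fell, Plin3 and Cidec, against 5.41% of all genes. No gene reached 2-fold, against 0.231% of all genes. The median of the 10 genes was 0.15 and that of all genes -0.024. Both calls were close to the threshold, with adjusted p of 0.042 and 0.049, and lapsed in 13 and 18 of 22 alternative settings. With any 1 of the 14 arrays left out, the count was 0 or 1.

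The HF and LF pools were also compared with each other at each time. At 3 h, Plin2, Cidec and G0s2 were higher in HF3h than in LF3h and no gene was lower, a count of 3 of 10 against 2.2% of all genes. Plin2 differed by 0.98 (0.79 to 1.17, limma adjusted p = 2.4e-05), which is 1.97-fold, and Cidec by 0.68 (0.5 to 0.87, adjusted p = 0.00075), which is 1.6-fold. G0s2 differed by at least 1.34 (adjusted p = 3.2e-05) and was the only one of the 10 past 2-fold, against 0.28% of all genes. Plin2 stood so close to that threshold that its 2-fold call changed with quantile normalization and with HF3h replicate 2 left out, where the count was 2.

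For genes above background that did not pass, the HF3h minus LF3h intervals give the range left by array error, not by variation between mice. They were -0.08 to 0.27 for Cideb, -0.3 to 0.17 for Abhd5 by its brighter probe set and 0.04 to 0.57 for Fitm2 (difference 0.3, limma adjusted p = 0.26). For Hilpda the interval was -0.21 to 0.49, but both pools were near background, so that it sets no limit on a change. At 30 min and 1 h, 0 of the 10 genes differed between HF and LF in the limma test, against 0.55% and 0.225% of all genes, and 0 reached 2-fold, against 0.077% and 0.022%. At an unadjusted p under 0.05, Lipe was lower at HF30min than at LF30min (difference -0.31, adjusted p = 0.27). At HF1h compared with LF1h, Hilpda was higher (0.67, adjusted p = 0.16, both pools near background) and Abhd5 lower (-0.3, adjusted p = 0.36). The second Abhd5 probe set gave -0.08 for that last difference.

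**Figure D3:**
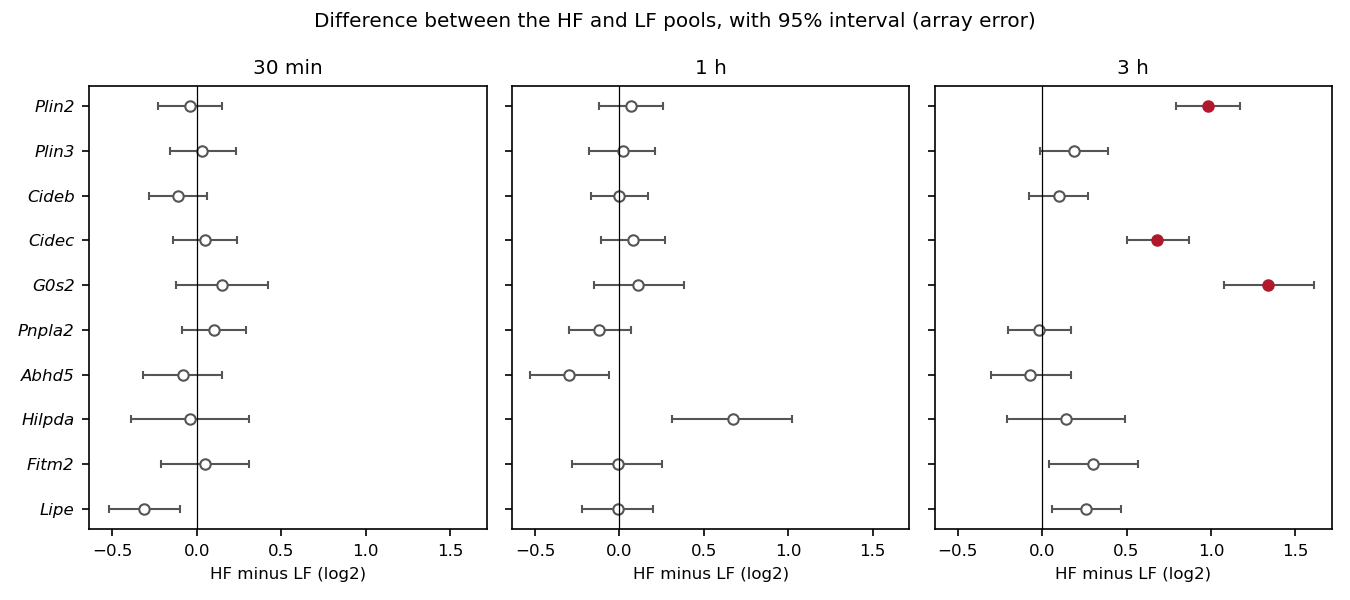
Difference between the HF and LF pools (horizontal axes, log2 units) for the 10 genes at 30 min, 1 h and 3 h. Points are differences of the means of 2 arrays, bars are 95% intervals from limma that cover array error only, and filled red points have an adjusted p under 0.05. The 3 filled points, all at 3 h, are Plin2 at 0.98, Cidec at 0.68 and G0s2 at 1.34.

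Whether the difference between meals at 3 h was itself larger than at the earlier times was tested as a contrast, HF minus LF at 3 h less the mean of HF minus LF at 30 min and 1 h. It passed for 3 of the 10 genes, against 1.01% of all genes, and also for 11 of 12 pancreatic acinar markers (median 1.28) and 5 of 9 markers of stomach and Brunner gland (median 1.78). The contrast was 0.96 for Plin2 (limma adjusted p = 0.00025), 0.62 for Cidec (adjusted p = 0.013) and 1.21 for G0s2 (adjusted p = 0.00077), the last a fitted value between pools that were all near background. For Cidec it no longer passed without LF3h replicate 1 (0.54, adjusted p = 0.092) or without HF3h replicate 1 (0.59, adjusted p = 0.098). For Lipe it was 0.42 (0.17 to 0.68, adjusted p = 0.14). The Lipe contrast did pass with dim probe sets removed (limma adjusted p = 0.026) and with a variance trend (0.012).

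The HF3h pool was also compared with the HF1h pool. At HF3h compared with HF1h, 4 of the 10 genes rose and none fell, against 2.61% of all genes. Plin2 rose by 1.14 (adjusted p = 9.7e-06), Cidec by 0.78 (adjusted p = 0.00029), G0s2 by at least 1.16 (adjusted p = 2e-04) and Abhd5 by 0.47 (adjusted p = 0.046), all from limma. The second Abhd5 probe set gave 0.47 too (adjusted p = 0.015), but the Abhd5 call by the brighter probe set lapsed in 14 of 22 settings, with adjusted p up to 0.25. Plin3 was 0.37 higher (0.18 to 0.57, adjusted p = 0.058) and Fitm2 0.39 higher (0.12 to 0.65, adjusted p = 0.16), and neither passed. Plin3 did pass after quantile normalization (limma adjusted p = 0.03), with dim probe sets removed (0.0062) and with a variance trend (4.6e-05). It also passed with genes read by the mean of their probe sets (0.02), and Fitm2 passed with dim probe sets removed (0.038). Between LF1h and LF3h, 0 of the 10 genes were called by their brightest probe set, against 2.8% of all genes, while 4 were higher and 1 lower at an unadjusted p under 0.05. Plin2 differed there by 0.23 (0.04 to 0.42, adjusted p = 0.21), and the second Abhd5 probe set by 0.39 (adjusted p = 0.043).

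Over the 7 pools, the means of a gene spanned 1.5 for G0s2, 1.3 for Plin2, 1.01 for Cidec, 0.67 for Hilpda, 0.63 for Fitm2, 0.54 for Plin3 and Abhd5, 0.41 for Lipe, 0.31 for Pnpla2 and 0.13 for Cideb. The median span over all genes was 0.29 and the 90th percentile 0.51, which 7 of the 10 genes exceeded. HF3h was the highest pool for 7 of the 10 and for 16.2% of all genes, although Cideb averaged 11.26 in both HF3h and Fasting. The exceptions were Pnpla2, highest in Fasting at 9.12 and lowest at HF3h at 8.81, Abhd5, highest at LF3h at 7.46, and Hilpda, highest at HF1h.

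Across the 7 pool means, Pearson r was 0.99 between Plin2 and Cidec, 0.97 between Plin2 and G0s2 and 0.96 between Cidec and G0s2. Plin3 correlated at 0.96 with Fitm2 and at -0.85 with Pnpla2. Cideb correlated at 0.96 with Lipe, but the pool means of Cideb spanned only 0.13, with an SD between arrays of up to 0.08. With 7 points that share their arrays, and with the high values of Plin2, Cidec and G0s2 resting on the single HF3h pool, these coefficients only describe the shared profile. Among 353 genes with a mean of at least 6 in some pool and a span of at least 0.8, the 5 with the highest r to Plin2 were 1810055G02Rik (0.99), Acot4 (0.99), Cdr2 (0.989), Cidec (0.987) and Cyp4f16 (0.973). For Cidec they were Cdr2 (0.993), 1810055G02Rik (0.993), Plin2 (0.987), Tmem263 (0.974) and Kdelr3 (0.972). For G0s2 they were Mfsd2a (0.984), Acot2 (0.969), Plin2 (0.968), Suco (0.968) and Cidec (0.963). Mfsd2a, a transporter of lysophosphatidylcholine, averaged 9.45 at HF3h, 7.95 at LF3h and 7.77 in Fasting, while Acot4 and Acot2, acyl-CoA thioesterases, averaged 7.17 and 8.56 at HF3h against 6.39 and 7.69 in Fasting.

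A further list of lipid droplet proteins gave no calls at HF3h against Fasting or LF3h, where 6.67% and 2.2% of all genes were called. Of 16 listed genes 14 were measured, among them Plin4, Plin5, Cidea, the seipin gene Bscl2 and the droplet GTPase gene Rab18, and 5 of the 14 were near background in every pool. In each of the 6 comparisons with Fasting and the 3 between meals, 0 of the 14 were called by limma. At an unadjusted p under 0.05, 2 were higher and 1 lower at HF3h compared with Fasting, and 0 differed between HF3h and LF3h. Their median change was 0.06 at HF3h compared with Fasting and 0.05 at HF3h compared with LF3h. Plin5 averaged 4.36 at HF3h, 4.42 at LF3h and 4.06 in Fasting, and Plin4 3.96, 3.74 and 3.68. Rab18 averaged 10.06, 10.05 and 10.01 in the same pools. At most 1 of the 14 was called between times, against 2.61% of all genes at HF3h compared with HF1h and 2.8% at LF3h compared with LF1h. Plaat3, a phospholipase of lipid droplets and other organelles, was the only one called between times, at 8.1 at HF3h against 8.54 at HF1h (difference -0.44, adjusted p = 0.027), and that call lapsed without HF1h replicate 2 or either HF3h array (adjusted p up to 0.24).

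Of 18 other lipases and regulators of lipolysis, 15 were measured. At HF3h compared with Fasting 2 rose and 1 fell, with a median of -0.01 over the 15, and 6.67% of all genes were called. Lpl, encoding lipoprotein lipase, averaged 6.23 at HF3h and 5.53 in Fasting and so rose by at least 0.71 (limma adjusted p = 0.0016). Lipa, encoding lysosomal acid lipase, averaged 10.41 and 9.87 in those pools and rose by 0.55 (adjusted p = 0.00097). Ces1f, a carboxylesterase gene, averaged 8.35 and 8.74 and fell by 0.39 (adjusted p = 0.016). Without any 1 of the 4 arrays compared, the Ces1f call lapsed (adjusted p up to 0.12).

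Lpl was also called higher early, at 6.11 at HF30min (at least 0.58 above Fasting, adjusted p = 0.025, lapsing without any 1 of those 4 arrays) and at 6.45 at LF1h (at least 0.92 above Fasting, adjusted p = 0.00038). It was the only 1 of the 15 called at HF30min and at LF1h, against 1.12% and 1.54% of all genes. Lpl was lower at LF3h, at 5.7, than at LF1h (difference -0.74, limma adjusted p = 0.0026), where 2.8% of all genes were called. At HF3h compared with LF3h, Lpl was higher by at least 0.53 (limma adjusted p = 0.03). Abhd6, a monoglyceride lipase gene, averaged 9.31 against 8.9 (difference 0.41, adjusted p = 0.036). The median over the 15 genes was 0, and these 2 calls stood against 2.2% of all genes. The Lpl call lapsed in 3 of 18 settings, without either LF3h array or HF3h replicate 1 (adjusted p up to 0.3), and the Abhd6 call in 7 (up to 0.18). Lipa also rose at HF3h compared with HF1h, by 0.5 (adjusted p = 0.0045, and 0.056 without HF3h replicate 1). Lipa was the only 1 of the 15 called between HF3h and HF1h, against 2.61% of all genes. Mgll, the main monoglyceride lipase gene, averaged 6.14 at HF3h and 5.83 in Fasting (difference 0.31, limma adjusted p = 0.077).

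Markers of other cell types moved in some of the same pools. Plin2, Cidec, G0s2, Pnpla2, Abhd5 and Lipe are also abundant in fat cells. Of these, Plin2, Cidec and G0s2 were called higher at HF3h than at LF3h. Pnpla2, Abhd5 and Lipe were not called there, with differences of -0.02, -0.07 and 0.26. Of 11 measured adipocyte markers 2 rose at HF3h compared with Fasting, 2 compared with LF3h and 2 compared with HF1h, with medians of 0.19, 0.15 and 0.13. The shares of all genes called were 6.67%, 2.2% and 2.61%. The 2 adipocyte markers were Adipoq, encoding adiponectin, and Fabp4, encoding a fatty acid binding protein. Adipoq averaged 4.08 at HF3h, 2.88 at LF3h and 3.12 in Fasting, with a fitted HF3h minus LF3h difference of 1.2 (limma adjusted p = 1.9e-05). It was near background throughout, with HF3h, LF3h and Fasting all under the 95th percentile of the olfactory receptor genes (4.68). Fabp4 averaged 7.46, 6.8 and 6.87 in these pools and differed by 0.66 between HF3h and LF3h (adjusted p = 0.0058, and up to 0.079 without LF3h replicate 1 or HF3h replicate 1).

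The other 9 measured fat cell markers did not pass the test in these 3 comparisons, and 9 of the 11, Lep, Plin4, Cidea and Slc2a4 among them, were near background in every pool. Lep averaged 3.48 at HF3h and 3.49 in Fasting. The summed linear level of the 11 was 512 to 524 on the HF3h arrays, 424 to 435 on the LF3h arrays and 441 on both Fasting arrays. It was 493 to 494 at LF1h, where 0 of the 10 genes were called compared with Fasting, against 1.54% of all genes. A linear sum gives most weight to the markers above background, Fabp4 and Pparg, and so is not an even reading of the list. Fabp4 was higher at HF3h, while Pparg averaged 6.88 at HF3h, 6.92 at LF3h and 6.99 in Fasting. The part of fat cells in the HF3h values was not tested.

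**Figure D4:**
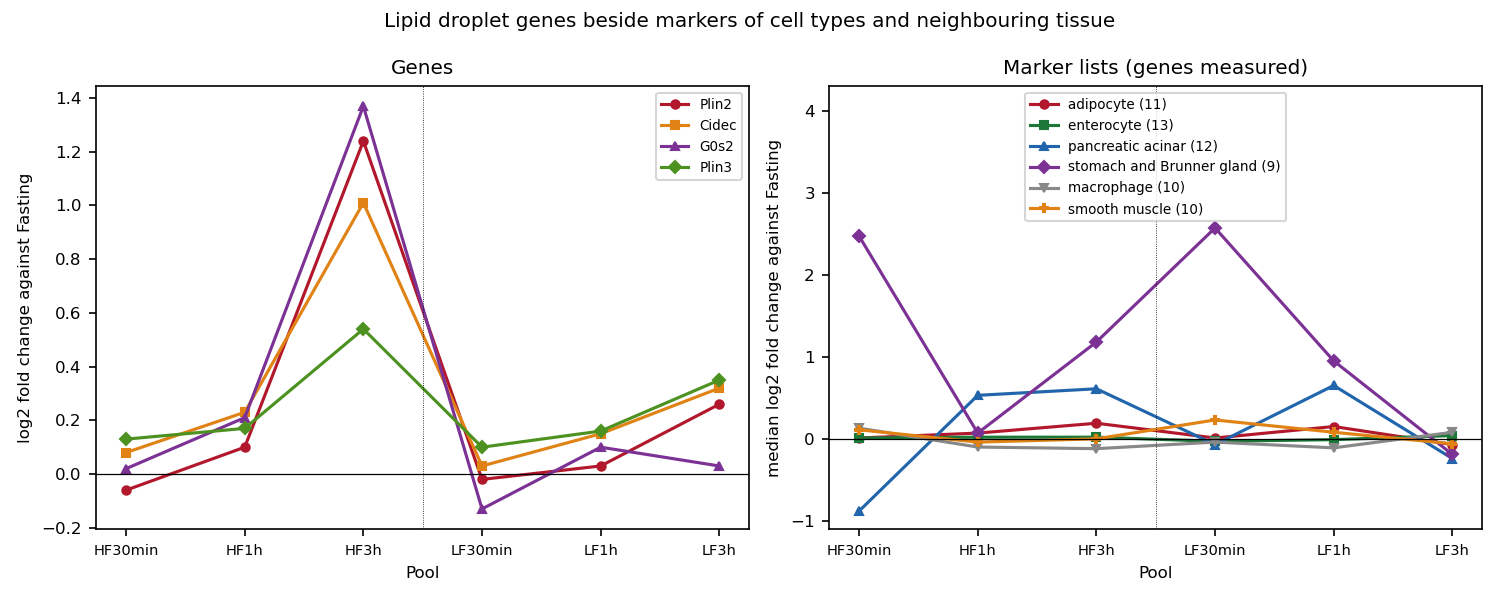
Log2 fold change against Fasting of Plin2, Cidec, G0s2 and Plin3 (left) and median log2 fold change of 6 marker lists (right, with the number of genes measured), in the 3 HF and the 3 LF pools. The vertical axes differ. The 4 genes peak at HF3h, where the medians were 1.18 for stomach and Brunner gland, 0.61 for pancreatic acinar, 0.19 for adipocyte and 0.02 for enterocyte markers.

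Pancreatic acinar markers, 12 measured, rose at HF3h compared with Fasting in 11 cases (median 0.61) and compared with LF3h in 11 cases (median 0.86), against 6.67% and 2.2% of all genes called. They had also risen at HF1h, in 10 cases with a median of 0.53, and at LF1h, in 11 cases with a median of 0.65. At HF1h and LF1h compared with Fasting, 0 of the 10 genes were called, against 1.01% and 1.54% of all genes. Between HF3h and HF1h, where Plin2, Cidec and G0s2 rose and 2.61% of all genes were called, 0 of the 12 acinar markers were called (median 0.12, 3 higher at an unadjusted p under 0.05). Their summed linear level was 105680 to 105820 at HF3h, 97994 to 98566 at HF1h and 57237 to 58086 at LF3h. Markers of stomach and Brunner gland, 9 measured, rose in 5 cases at HF3h compared with Fasting (median 1.18), with LF3h (median 1.37) and with HF1h (median 0.94). At HF30min compared with Fasting they rose in 9 cases (median 2.47), where 0 of the 10 genes were called, against 1.12% of all genes. The summed level of these 9 markers was 6700 to 6777 at HF3h, 1667 to 1685 at HF1h, 13859 to 13963 at HF30min and 1220 to 1259 in Fasting. The part of pancreas, stomach or Brunner gland in the HF3h values was not tested.

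Of all genes, 6.67% were called at HF3h compared with Fasting and 2.2% compared with LF3h. Enterocyte markers rose in 1 of 13 cases at HF3h compared with Fasting and in 0 compared with LF3h, with medians of 0.02 and -0.01. At an unadjusted limma p under 0.05, 3 were higher and 2 lower than in Fasting, and 1 was higher than at LF3h. Of 10 macrophage markers 1 fell at HF3h compared with Fasting (median -0.12) and 2 were lower than at LF3h (median -0.23). By unadjusted limma p under 0.05, 3 were lower than in Fasting and 6 lower than at LF3h, with 0 higher. Markers of neutrophils, endothelium and smooth muscle (6, 8 and 10 measured) had 0 called by limma at HF3h against either pool, and at an unadjusted p under 0.05 at most 2 of a list were.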

How the data were processed

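Mucosa of the duodenum was pooled from 20 mice per group, and each of the 7 pools was hybridised to 2 Affymetrix MOE 430 v2.0 arrays (14 arrays, technical replicates per the labels). The authors processed the arrays with RMA, which corrects background, normalizes between arrays and summarises probes, and deposited 1 log2 value per probe set. No version of RMA is given in the sources used here. RMA sets the arrays to 1 common distribution, so a shift shared by most genes would not be seen.

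Of 45101 probe sets, 64 controls were left out and 45037 were tested. Probe sets were named by the platform's annotation. Of them 34945 had a single gene symbol, 932 had several and 9160 had none, and each of the 18193 genes was read by its single-gene probe set with the highest mean. Gene positions and promoter sequences came from RefSeq tables of GRCm38.p6, in which all 10 genes were matched.

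A mean was fitted for each group with limma 3.58.1 in R 4.3.3 (lmFit and eBayes, two-sided moderated test, 7 residual degrees of freedom), with 12 comparisons and Benjamini-Hochberg adjustment over all probe sets within each. The fit was tested on simulated data with known changes. Intervals are 95% intervals of limma's estimates. Figures were drawn with matplotlib 3.10.9 in Python 3.11.15. The precision is limited by 2 arrays per pool, which gave log2 differences a standard error of 0.11 (median over probe sets).

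The text names all 10 genes, list members only where they passed the test (up to 4 per list and comparison), the 5 genes with the most similar profile for Plin2, Cidec and G0s2, and the markers that moved with them. Genes without a call that are named as examples (Plin4, Plin5, Rab18, Mgll, Lep and the like) were chosen after their values were seen. The 10 genes and the lists were chosen with earlier results of these data known, so that no count is independent support for them. Alternatives were 2 other normalizations, a filter on dim probe sets, a variance model with trend, fits on the compared groups alone, the replicate number as a block, other choices of probe set, a 1.5-fold minimum, unadjusted p and each array left out in turn.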

Additional observations from a re-analysis of the deposited data

Results flagged for a closer look

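Plin2, Cidec and G0s2 differed between the HF and LF meals at 3 h in the direct test. HF3h minus LF3h was 0.98 for Plin2, 0.68 for Cidec and at least 1.34 for G0s2 on the log2 scale. The difference between the meals at 3 h also exceeded the mean difference at 30 min and 1 h, by 0.96 for Plin2, 0.62 for Cidec and 1.21 for G0s2. With 2 arrays per pool, no array could be tested for standing apart from its group.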

How the results depend on the processing

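Of the 17 calls of the 10 genes, 12 were kept in every setting in which the gene was tested. Plin2 ranged from 1.19 to 1.29 at HF3h compared with Fasting and Cidec from 0.96 to 1.05, so that the 2-fold count there was 2 to 3 with each array left out in turn. At LF3h compared with Fasting, the count of 2 genes became 5 (4 higher, 1 lower) with the filter and with the trend and robust variance, 0 in a fit of those groups alone, 0 without _s_at, _x_at and _a_at probe sets, 0 with the replicate block, and 0 to 1 with each array left out. Counts of 0 became 1 with the filter and the trend at HF30min compared with Fasting (Lipe), 1 with the trend at HF30min compared with LF30min (Lipe) and at HF1h compared with LF1h (Hilpda), and 1 with the filter (Plin2) and 2 with the trend (Plin2, Plin3) at LF3h compared with LF1h. The 2-fold count of 1 at HF3h compared with LF3h became 2 after quantile normalization, 0 with the filter, which removed G0s2 and Hilpda, 3 at a 1.5-fold minimum, and 1 to 2 with each array left out. The cause of the other changes was not tested. Shares of all genes called were taken from the main fit only. Whether a changed count was particular to the 10 genes was therefore not tested. No fold change of a called gene changed sign.

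The replicate numbers of the labels marked little shared deviation. For each group, the deviation of replicate 1 from the group mean was taken for every probe set. Over 21 pairs of groups, these deviations correlated at -0.19 to 0.15, with 2 pairs over 0.1. Besides the 2 calls at LF3h, the replicate block lost Abhd5 at HF3h compared with HF1h (0.47, adjusted p = 0.064). Subtracting array medians shifted the median of all genes by at most 0.033. Cideb and Hilpda have no probe set without these suffixes and were not tested in that setting. G0s2 and Hilpda, near background in every pool, are limited by low signal.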
